A study of Homo sapiens with 20 samples.

Results

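The genes examined were 43 enzymes and core subunits that add methyl groups to histone lysines or take them off, apart from LSD1 (KDM1A), the demethylase that was silenced, and its close relative KDM1B. They were found by symbol: a probe set counted if it was annotated to exactly 1 of the 43 names, and the brightest probe set over all arrays stood for the gene. All 43 were found, among 19775 genes on the array. Of them, 17 are demethylases and 26 are methyltransferases or subunits of Polycomb repressive complex 2 (PRC2). They had 150 probe sets in all, 1 to 11 per gene, and 37 genes had more than 1. A gene was taken as bright in a group where its mean log2 intensity was 6 or more, and 42 of the 43 were bright in every group. The exception was KDM4D.

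RNA came from the prostate cancer lines LNCaP and C42B, the second derived from the first, on 20 Affymetrix 3′ expression arrays. C42B cells had been transfected for 6 h with siLSD1, an siRNA against LSD1, or the control siRNA siNTC, then kept for 96 h in RPMI with 10% CSS (3 arrays each). LNCaP cells received siLSD1 or siNTC at 50 nM and were kept for 96 h in RPMI with 10% FBS (3 arrays each, each made from 2 pooled wells). For the hormone experiment, C42B cells spent 72 h in RPMI with 10% CSS and then 16 h with 100 nM dihydrotestosterone (DHT), the strongest natural androgen, or with ethanol alone, the group named Veh+ (4 arrays each). No array combined siLSD1 with added DHT. The C42B arrays came from separate wells, and the LNCaP arrays from what the labels call biological replicates, so for C42B the p-values measure the spread between wells. The labels name a single LSD1 siRNA, so effects of LSD1 loss and of the siRNA sequence cannot be told apart. The lines also differed in serum and experiment.

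Methylation of lysines on histones H3 and H4 marks chromatin without changing DNA. Methylated H3K4 sits at active promoters and enhancers, H3K36 and H3K79 methylation over transcribed genes, and H3K9, H3K27 and H4K20 methylation in silent or condensed chromatin. SET-domain enzymes and DOT1L write these marks, and JmjC-domain oxygenases, along with the unrelated LSD1 enzymes, remove them. Several of these enzymes, EZH2 above all, are known for high levels in dividing and in advanced prostate cancer cells.

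The knockdown was first checked on KDM1A itself, which had 1 probe set. Its mean was 7.88 ± 0.12 (SD, n = 3) with siLSD1 and 10.29 ± 0.08 with siNTC in C42B, a fall of 81.1%. In LNCaP it was 7.30 ± 0.09 against 10.08 ± 0.14, a fall of 85.4%. An exact two-sided permutation test gave p = 0.1 for either line, the lowest value possible with 3 arrays against 3. With DHT it was higher by 0.16 ± 0.04 (SE). The arrays' median intensities lay between 63.3 and 65.1 in the LNCaP experiment, 78.4 and 81.2 in the C42B siRNA experiment and 84.1 and 86.1 in the DHT experiment, so levels were compared only within an experiment. All 8 luminal prostate markers measured were bright in all 6 groups, from 7.64 to 14.07. Of 12 markers of other cell types, 6 were dim in all 6 groups (COL1A2, LUM, CDH5, PTPRC, LYZ and KRT14), 3 were bright in all of them (COL1A1, PECAM1 and VWF) and DCN, CD3E and KRT5 were bright in some. The 3′ minus 5′ signal of the actin control probe sets, a measure of RNA integrity, was 1.17 to 1.31 on the C42B siLSD1 arrays and 1.13 to 1.19 on their controls, 0.93 to 1.09 and 0.82 to 0.98 in LNCaP, and 0.91 to 1.16 and 0.90 to 1.12 with DHT and Veh+, and its part in the results was not tested. In bulk RNA a change in the mix of cells cannot be told apart from a change in RNA per cell.

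A gene was called when its adjusted p was under 0.05 in limma, fitted over all 19775 genes with Benjamini-Hochberg adjustment. With siLSD1 in C42B, 11 of the 43 genes fell and 2 rose, while 9.39% of all genes fell and 8.66% rose. In LNCaP 12 fell and 7 rose, against 12.5% and 13.4% of all genes. With DHT 12 fell and 8 rose, against 19.4% and 13.4%. The median change over the 43 was -0.11 in C42B, -0.08 in LNCaP and -0.06 with DHT, and over all genes -0.02, 0.01 and 0.01. Of the 26 methyltransferases and PRC2 subunits, 9 fell in C42B (34.6%) and 8 in LNCaP (30.8%) after siLSD1. Of the 17 demethylases, 2 fell (11.8%) and 1 rose in C42B, and 4 fell (23.5%) and 4 rose in LNCaP. With DHT, 4 demethylases fell (23.5%) and 5 rose (29.4%). Of the methyltransferases and PRC2 subunits, 8 fell (30.8%) and 3 rose (11.5%) with DHT. Most changes were small. PHF8 with DHT was the only called change above 2-fold. Genes that were not called lay between -0.19 and 0.18 in C42B (30 genes), -0.26 and 0.24 in LNCaP (24 genes) and -0.18 and 0.15 with DHT (23 genes). Their 95% intervals, which are not adjusted for the number of genes, reached a median of 0.14, 0.16 and 0.12 to either side. The smallest called changes among the 43 were 0.18, 0.22 and 0.16 in size, so smaller changes could be missed. In no comparison were KDM2A, KDM4C, KDM5C, KMT2D, KMT2E, SETD1A, SETD1B, EED, SETDB2, NSD1 and KMT5B called, 11 genes.

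These counts moved with the arrays and the scaling. Without C42B siLSD1 replicate 2 or 3, or siNTC replicate 1 or 2, the C42B falls dropped to 5, 4, 6 and 4 and the rises to 0, 1, 1 and 0. Without siNTC replicate 3 they were 8 and 1, and with siLSD1 replicate 1 left out 8 and 3. In LNCaP the rises dropped to 3 without siLSD1 replicate 2, and to 4 without siLSD1 replicate 3, siNTC replicate 2 or siNTC replicate 3, and the falls to 8 without siNTC replicate 2. With DHT the split of 8 rises and 12 falls became 13 and 7 once each array was centred on its median.

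**Figure D1:**
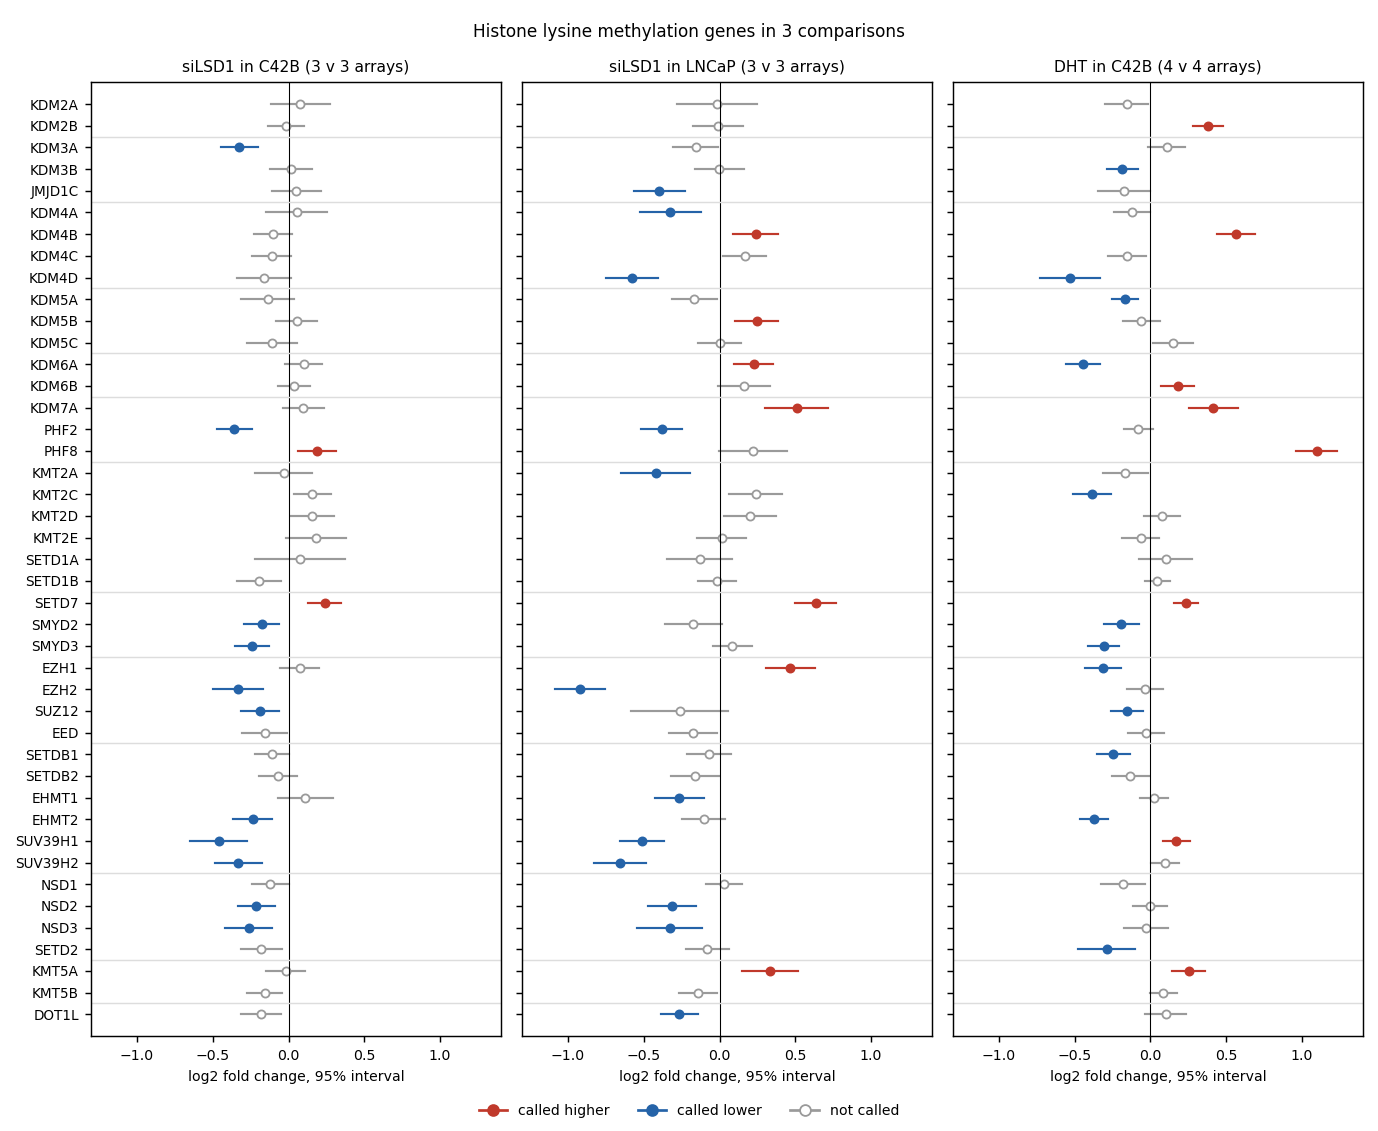
Each row is 1 of the 43 genes, grouped by target lysine, enzyme family or complex, and each panel is 1 comparison. Points are log2 fold changes of the brightest probe set with 95% intervals, filled red or blue where the adjusted p was under 0.05. EZH2 in LNCaP (-0.92) and PHF8 with DHT (1.10) stand furthest from 0.

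After siLSD1, 6 genes fell in both lines: EZH2, SUV39H1, SUV39H2, NSD2, NSD3 and PHF2. Over the array 5.64% of genes fell in both. SETD7 was the only member that rose in both, as 5.29% of all genes did. No member was called in opposite directions in the 2 lines.

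EZH2 is the main catalytic subunit of PRC2, which methylates H3K27. On the LNCaP arrays EZH2 read 8.18, 8.32 and 8.38 with siLSD1 and 9.15, 9.28 and 9.20 with siNTC. In C42B it read 9.55, 9.79 and 9.59 with siLSD1 and 9.93, 10.02 and 9.98 with siNTC. Every siLSD1 array lay below every siNTC array of its line. The fall was 1.89-fold in LNCaP (-0.92 ± 0.07 SE, adjusted p = 5.8e-05 in limma) and smaller in C42B (-0.33 ± 0.07, adjusted p = 0.018). The change in C42B minus that in LNCaP was 0.59 (95% interval 0.36 to 0.81, adjusted p = 0.0033 in limma). The C42B call was lost without siLSD1 replicate 3, siNTC replicate 2 or siNTC replicate 3. With DHT it was not called, at -0.04 (95% interval -0.15 to 0.08), and its 2 groups overlapped.

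EZH1, the second catalytic subunit, went the other way in LNCaP. It read 8.81, 8.75 and 8.79 with siLSD1 and 8.45, 8.25 and 8.25 with siNTC, a rise of 0.47 ± 0.07 (SE, adjusted p = 0.0017 in limma). In C42B the groups overlapped and the change was 0.07 (95% interval -0.06 to 0.20). The lines differed by -0.39 (adjusted p = 0.013). A second bright probe set of EZH1 also rose in LNCaP, by 0.25. SUZ12, the subunit that holds PRC2 together, fell by 0.19 in C42B (adjusted p = 0.049), a call lost in 10 of 14 other settings. In LNCaP it was at -0.26 with overlapping groups (adjusted p = 0.22). EED, which binds the finished mark, was not called by its brightest probe set. Its other probe set fell in C42B, from 6.86 to 6.06, and rose in LNCaP, from 6.25 to 7.23 (adjusted p = 0.0049 and 0.00063 over every probe set). The difference between lines was not tested for this probe set, which was picked out after its values were seen.

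Windows of 250 bases before and 50 after the transcription start (RefSeq, GRCh38.p14) were found for 40 of the 43 genes, 61 windows in all. SETD1B, NSD3 and DOT1L had none. Both strands were searched for 4 words of the E2F site, bound by the factors that turn on S-phase genes: TTTCCCGC, TTTCGCGC, TTTGCCGC and TTTGGCGC. They occurred in 5 of 61 windows (8.20%) and in 3.31% of all 35114. The 5 belong to EZH2, SUZ12, EZH1, NSD2 and JMJD1C, which did not move alike, and are shown so that the word can be seen in its setting. Capitals mark the word, with up to 50 bases on each side, stopping at the window's edge or at the start. It begins 1 base past the first transcribed base in EZH2, and 189, 115, 77 and 216 bases before it in SUZ12, EZH1, NSD2 and JMJD1C. In EZH1 the word lies on the opposite strand.
EZH2, chr7:148884283-148884340, minus strand: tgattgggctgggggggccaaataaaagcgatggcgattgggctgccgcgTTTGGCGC
SUZ12, chr17:31936768-31936875, plus strand: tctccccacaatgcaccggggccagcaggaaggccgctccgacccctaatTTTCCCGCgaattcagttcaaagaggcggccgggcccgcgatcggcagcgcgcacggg
EZH1, chr17:42745098-42745205, minus strand: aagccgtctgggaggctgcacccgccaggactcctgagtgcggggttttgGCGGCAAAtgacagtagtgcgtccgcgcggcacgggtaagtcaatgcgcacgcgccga
NSD2, chr4:1871266-1871373, plus strand: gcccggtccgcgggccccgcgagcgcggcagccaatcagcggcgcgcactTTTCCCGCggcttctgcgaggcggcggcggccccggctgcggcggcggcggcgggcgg
JMJD1C, chr10:63466136-63466227, minus strand: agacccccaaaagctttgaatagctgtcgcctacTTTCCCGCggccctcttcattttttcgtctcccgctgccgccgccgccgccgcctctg
The word TTTGAA, found in the cell cycle homology region of many mitotic genes, was in 7 windows (11.5%, all windows 15.2%) and CCAAT in 22 (36.1%, all windows 34.6%). The match of a word is a description of the letters and no evidence of binding.

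SUV39H1 and SUV39H2, which trimethylate H3K9 in heterochromatin, fell together. In C42B, SUV39H1 read 8.09, 7.86 and 7.79 with siLSD1 and 8.37, 8.34 and 8.42 with siNTC. In LNCaP it read 7.13, 7.10 and 7.03 against 7.65, 7.51 and 7.64. The groups did not overlap in either line, and the falls were close in size (-0.46 ± 0.08 SE and -0.51 ± 0.06, adjusted p = 0.0084 and 0.00058 in limma). The difference between the lines was 0.05 (95% interval -0.17 to 0.28). SUV39H2 read 8.99, 9.22 and 9.15 with siLSD1 in C42B and 9.44, 9.47 and 9.46 with siNTC. In LNCaP it read 8.91, 8.95 and 9.09 against 9.63, 9.73 and 9.54. All siLSD1 arrays again lay below the controls, by 0.33 in C42B and by 0.66 in LNCaP, where the fall was 1.58-fold (adjusted p = 0.014 and 0.00041 in limma). The C42B call was lost without siNTC replicate 2. Its second probe set was dim with siLSD1 in C42B and in both LNCaP groups, and is given no size. The difference of the 2 lines for SUV39H2 did not pass (0.33, 95% interval 0.10 to 0.55, adjusted p = 0.061).

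Of the other H3K9 methyltransferases, EHMT2 (G9a), which makes the dimethyl mark, fell by 0.24 in C42B (adjusted p = 0.024) and was at -0.11 in LNCaP (adjusted p = 0.28). Its partner EHMT1 showed the opposite order of lines, at 0.11 in C42B (adjusted p = 0.39) and a fall of 0.27 in LNCaP (adjusted p = 0.025). Each of these calls was lost in 5 of 14 other settings. For EHMT1 the lines differed by 0.38 (adjusted p = 0.042), a call lost in 12 of 20 other settings. For EHMT2 they did not differ beyond their spread (-0.13, 95% interval -0.30 to 0.04). SETDB1 and SETDB2 were called in neither line.

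NSD2 and NSD3, which dimethylate H3K36, fell modestly in both lines, and NSD1 was called in neither by its brightest probe set. When every probe set was tested, 2 others of NSD1 were called lower in C42B, at -0.23 and -0.26 (adjusted p = 0.035 and 0.032 in limma). The contrast of NSD1 with NSD2 and NSD3 in C42B therefore depends on the probe set. NSD2 read 9.58, 9.65 and 9.63 with siLSD1 in C42B and 9.87, 9.86 and 9.77 with siNTC. The LNCaP values were 9.11, 9.13 and 9.15 against 9.55, 9.46 and 9.32. The falls were 0.21 ± 0.05 (SE) and 0.31 ± 0.07 on the log2 scale (adjusted p = 0.029 and 0.011 in limma), with no overlap. All 6 of its probe sets were bright and had a change below 0 in both lines, and 3 passed in C42B and 4 in LNCaP when every probe set was tested. NSD3 read 9.50, 9.64 and 9.68 with siLSD1 in C42B against 9.93, 9.89 and 9.79. The LNCaP values were 8.93, 9.20 and 9.19 against 9.58, 9.37 and 9.37. Its falls were 0.26 ± 0.07 (SE) and 0.33 ± 0.09 (adjusted p = 0.032 and 0.033). Of the 4 other bright probe sets of NSD3 in C42B, 3 had the sign of the fall and 1 passed, and the highest was at 0.02. The C42B calls of NSD2 and NSD3 were lost in 7 and 6 of 14 other settings, mostly with 1 array left out, and that of NSD3 in LNCaP in 6 of 14.

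PHF2, a JmjC protein that removes H3K9 dimethylation, fell by similar amounts in both lines. In C42B it read 9.77, 9.78 and 9.85 with siLSD1 and 10.19, 10.15 and 10.12 with siNTC. In LNCaP it read 8.94, 9.0 and 8.90 against 9.36, 9.37 and 9.27. Neither line's groups overlapped. The falls were 0.36 ± 0.05 (SE) and 0.38 ± 0.06 on the log2 scale (adjusted p = 0.0036 and 0.002 in limma), and the lines differed by 0.02 (95% interval -0.14 to 0.19). Its other probe set was dim and not called, and averaging the pair ended both calls.

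Genes of cell division moved with these falls. Of 24 replication and mitosis genes, 19 fell and 0 rose in C42B (median -0.45), among them ASPM (-0.82), CENPF (-0.67) and MCM2 (-0.61), and 23 fell and 0 rose in LNCaP (median -1.13), among them CDC20 (-1.62), ASPM (-1.59) and TOP2A (-1.58). Of all genes, 9.39% fell and 8.66% rose in C42B, and 12.5% fell and 13.4% rose in LNCaP. By limma without adjustment, 21 and 23 of the 24 had a p below 0.05, as did 6164 and 7055 of all 19775 genes. The list's median level lay between 10.47 and 10.56 on the C42B siLSD1 arrays and 10.84 and 10.98 on their controls. In LNCaP it lay between 8.90 and 9.05 against 10.32 and 10.40. The change was called higher in C42B minus LNCaP for 23 of the 24, against 5.56% of all genes. TOP2A (1.10), CDC20 (1.06) and UHRF1 (1.03) were furthest apart. The part of cell division in the falls of EZH2, SUV39H1, SUV39H2, NSD2 and NSD3 was not tested.

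**Figure D2:**
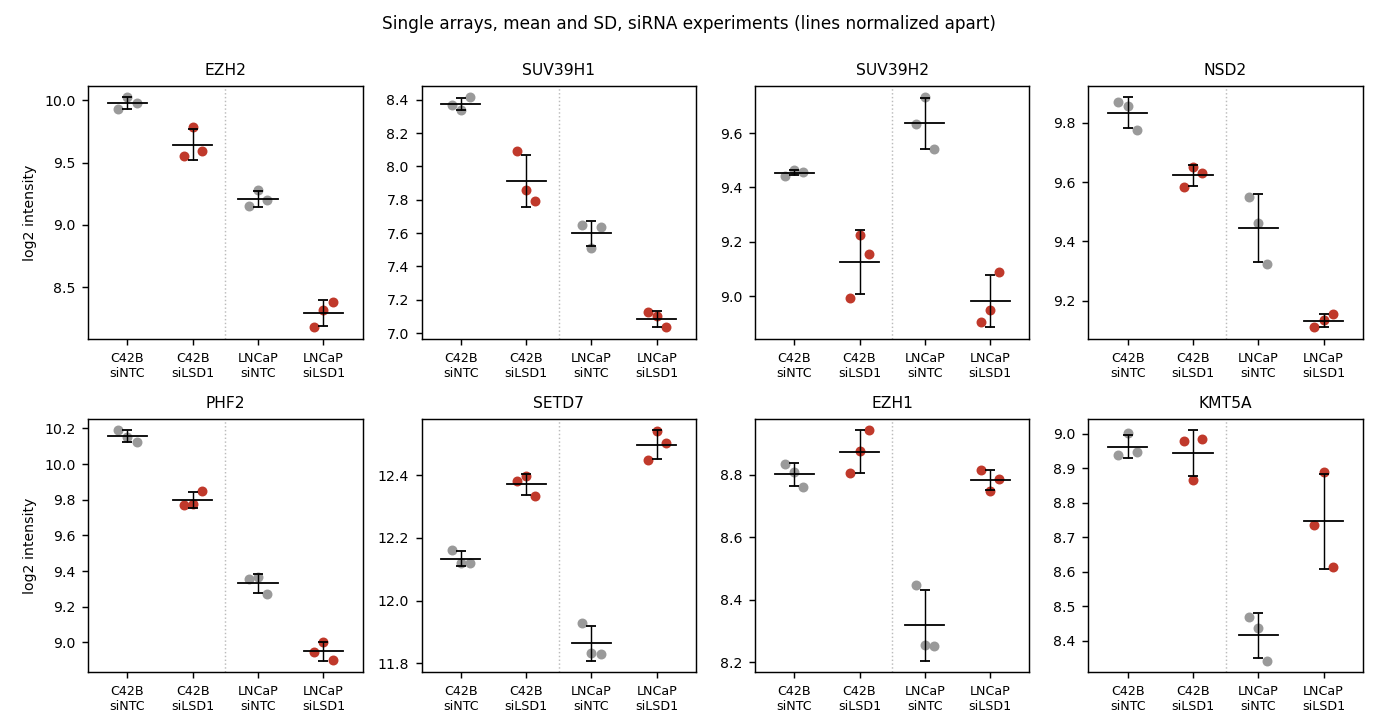
Log2 intensity of single arrays (points) with the group mean and SD (bars) for 8 genes, with C42B left and LNCaP right of the dotted line. The lines may have been normalized apart, since their arrays' median intensities differed, so their levels are not set against each other. EZH2 falls further in LNCaP (-0.92) than in C42B (-0.33), while SETD7 is higher with siLSD1 in both lines.

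SETD7, which monomethylates H3K4 and many other proteins, rose in both lines. In LNCaP it read 12.45, 12.54 and 12.50 with siLSD1 and 11.93, 11.83 and 11.83 with siNTC. In C42B it read 12.38, 12.40 and 12.33 against 12.16, 12.12 and 12.12. The groups stood apart in both lines. The rise was 1.55-fold in LNCaP (0.63 ± 0.06 SE, adjusted p = 0.00015 in limma) and 0.24 ± 0.05 in C42B (adjusted p = 0.014), and the lines differed by -0.40 (95% interval -0.55 to -0.24, adjusted p = 0.0037). Its second probe set was not called, at -0.05 in C42B and dim in LNCaP, and the mean of the pair passed in neither line. The 2 SMYD genes, SET enzymes that also methylate non-histone proteins, did not follow it. SMYD3 read 10.24, 10.22 and 10.20 with siLSD1 in C42B and 10.47, 10.50 and 10.42 with siNTC, a fall of 0.24 ± 0.05 (SE, adjusted p = 0.013). In LNCaP it was at 0.09 (95% interval -0.04 to 0.21), and the lines differed by -0.33 (adjusted p = 0.0075). SMYD2 fell by 0.18 in C42B (adjusted p = 0.049), a call lost in 11 of 14 other settings, and was at -0.17 in LNCaP (adjusted p = 0.17).

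KMT2A (MLL1), which methylates H3K4 at promoters of developmental genes, read 8.03, 8.31 and 8.34 with siLSD1 in LNCaP and 8.51, 8.76 and 8.68 with siNTC. It fell by 0.42 ± 0.10 (SE, adjusted p = 0.015 in limma), with no overlap, and lost the call without siNTC replicate 2. When every probe set was tested, the 5 that were bright in both LNCaP groups fell by 0.32 to 0.57, and another was called lower into a dim group (5.29 against 6.04). In C42B the brightest was at -0.03 (95% interval -0.22 to 0.16), and 3 others fell by 0.25 to 0.34. The other 5 members of the KMT2 and SETD1 family were called in neither line. KMT2C and KMT2D, the enhancer H3K4 monomethyltransferases, were at 0.24 and 0.20 in LNCaP (adjusted p = 0.053 and 0.084) and both at 0.16 in C42B (adjusted p = 0.083 and 0.13).

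Of the H3K9 demethylases of the KDM3 family, 1 was called in each line. KDM3A, which removes mono- and dimethylation of H3K9, read 9.81, 9.75 and 9.73 with siLSD1 in C42B and 10.12, 10.12 and 10.03 with siNTC. It fell by 0.32 ± 0.05 (SE, adjusted p = 0.006 in limma) and was at -0.16 in LNCaP (adjusted p = 0.11). The C42B call was kept in all 14 other settings, with a smaller size of -0.19 when its 2 probe sets were averaged. Its relative JMJD1C fell in LNCaP, where it read 9.13, 9.33 and 9.36 against 9.62, 9.71 and 9.68 (-0.40 ± 0.07 SE, adjusted p = 0.005). In C42B it was at 0.05 with overlapping groups. The lines differed for JMJD1C by 0.45 (95% interval 0.22 to 0.67, adjusted p = 0.015), a call kept in every other setting. For KDM3A the difference of -0.17 did not pass (adjusted p = 0.22).

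KDM7A, a PHD-JmjC demethylase of H3K9 and H3K27, read 7.84, 7.91 and 7.93 with siLSD1 in LNCaP and 7.57, 7.36 and 7.22 with siNTC. It rose by 0.51 ± 0.09 (SE, adjusted p = 0.0037 in limma). Its second probe set was called higher too, but from a dim control group (6.07 against 5.53). In C42B the brightest was at 0.10 (95% interval -0.04 to 0.23), and the lines differed by -0.41 (adjusted p = 0.033), a call lost in 10 of 20 other settings. KDM4D, an H3K9 demethylase best known from testis, was faint. It read 5.87, 5.87 and 5.89 with siLSD1 in LNCaP and 6.53, 6.30 and 6.53 with siNTC. The treated group was dim, so the fall was at least 0.45 on the log2 scale counted from 6 (fitted change -0.58, adjusted p = 0.00072). It was at -0.16 in C42B. The fitted difference between the lines passed (0.42, adjusted p = 0.027), but it rests on the dim LNCaP group and is no exact size, and the call was lost in 7 of 20 other settings.

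Smaller calls in LNCaP were rises of KDM4B (0.24), KDM5B, an H3K4 demethylase (0.24), and KDM6A (UTX), an H3K27 demethylase (0.22), and falls of KDM4A (-0.32) and DOT1L, the H3K79 methyltransferase (-0.27). KDM4A, KDM4B, KDM5B and KDM6A kept these calls in 8 or 9 of 14 other settings. Of the 4 other bright probe sets of KDM4B in LNCaP, 2 had the sign of the rise and 0 passed. DOT1L turned to 0.019 when its 3 probe sets were averaged. KMT5A (SET8), which monomethylates H4K20, read 8.74, 8.89 and 8.61 against 8.47, 8.44 and 8.34, a rise of 0.33 ± 0.08 (SE, adjusted p = 0.017). It was at -0.02 in C42B, and the lines differed by -0.35 (adjusted p = 0.039), lost in 11 of 20 other settings. KMT5B, which adds further methyl groups to H4K20, was called in neither line, but its second probe set fell by 0.40 in both. Another fell by 0.20 in C42B and rose by 0.25 in LNCaP, both noticed after the values were seen.

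Tested as a difference between the lines, 4 of the 43 were called higher and 7 lower for C42B minus LNCaP, against 5.56% and 6.07% of all genes. The 4 were EZH2, JMJD1C, KDM4D and EHMT1. The 7 were KDM7A, SETD7, EZH1, KMT5A, KDM4B (-0.34, adjusted p = 0.017 in limma), SMYD3 and KDM4C (-0.28, adjusted p = 0.04). KDM4C passed on its own in neither line, at -0.11 in C42B and 0.17 in LNCaP, and its difference was lost in 14 of 20 other settings. Only EZH2, JMJD1C and SMYD3 kept the call in all 20 other settings. KDM4B, SETD7 and EZH1 lost it only when their probe sets were averaged. The 4 became 2 without C42B siLSD1 replicate 2 or 3, C42B siNTC replicate 2 or LNCaP siLSD1 replicate 2. The 7 became 4 without C42B siLSD1 replicate 3, C42B siNTC replicate 1 or 3, LNCaP siLSD1 replicate 2, or LNCaP siNTC replicate 2 or 3. Line, serum and experiment cannot be told apart in any of these differences. The other 32 genes lay between -0.19 and 0.39.

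DHT raised PHF8 most of all. PHF8 is a JmjC demethylase of H3K9 and H4K20 that binds methylated H3K4. It read 9.96, 10.01, 9.96 and 10.01 with DHT and 8.80, 8.77, 8.99 and 8.99 with Veh+. The groups were far apart, by 1.10 ± 0.06 (SE), or 2.14-fold (adjusted p = 7.2e-07 in limma). Its other 2 probe sets, 1 of them dim, were not called with DHT. After siLSD1 it was at 0.19 in C42B (adjusted p = 0.049, lost in 9 of 14 other settings) and 0.22 in LNCaP (adjusted p = 0.14). The promoter windows were also searched for AGAACA, a word of the androgen receptor's site. It was in 0 of the 61 windows, against 14.8% of all. The word TGACGTCA, the cAMP response element, was in the promoter windows of PHF8, at an inner start of the gene, and of SUV39H2, 2 of 61 windows (3.28%) against 1.85% of all. It begins 116 bases before the start in SUV39H2 and 53 before in PHF8, and stands in capitals here.
SUV39H2, chr10:14878700-14878807, plus strand: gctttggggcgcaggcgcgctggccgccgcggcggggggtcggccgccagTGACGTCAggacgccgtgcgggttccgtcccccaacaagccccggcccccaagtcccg
PHF8, chrX:54044474-54044576, minus strand: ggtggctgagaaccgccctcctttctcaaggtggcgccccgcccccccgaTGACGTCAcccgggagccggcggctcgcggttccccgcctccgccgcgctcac

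KDM4B, a demethylase of trimethylated H3K9, read 10.97, 10.99, 11.00 and 10.87 with DHT and 10.40, 10.48, 10.43 and 10.27 with Veh+. It rose by 0.56 ± 0.06 (SE, adjusted p = 4.4e-05 in limma). Of its 8 probe sets, the 7 that were bright all rose, by 0.20 to 0.78. KDM2B, which removes H3K36 methylation and brings a Polycomb complex to CpG islands, read 10.67, 10.78, 10.72 and 10.71 against 10.28, 10.36, 10.40 and 10.33 (0.38 ± 0.04 SE, adjusted p = 0.00012). Its relative KDM2A was not called, at -0.16. KDM7A read 8.35, 8.33, 8.17 and 8.09 against 7.76, 7.83, 7.95 and 7.74 (0.41 ± 0.07 SE, adjusted p = 0.0016), and its other probe set rose by 0.55. For all of these genes every DHT array lay above every Veh+ array, apart from KDM2A.

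KDM6A fell with DHT. It read 11.42, 11.31, 11.36 and 11.41 against 11.77, 11.84, 11.75 and 11.92, without overlap (-0.44 ± 0.05 SE, adjusted p = 0.00011 in limma). Other probe sets of it fell by 0.69 and 0.24. In LNCaP with siLSD1 KDM6A had moved up, by 0.22 and, on another probe set, by 0.59. A further bright probe set of KDM6A was at -0.37 there and was not called. KDM6B (JMJD3), the inducible H3K27 demethylase, rose with DHT by 0.18 (adjusted p = 0.018). KDM4D was dim in both DHT groups and is given no size. KDM3B and KDM5A, demethylases of H3K9 and H3K4, fell by 0.18 and 0.17 (adjusted p = 0.013 and 0.0085). Both calls were lost with median centring, and that of KDM5A also with averaged probe sets. None of the 3 other bright probe sets of KDM5A was called.

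Among the writers, KMT2C and EHMT2 fell furthest with DHT. KMT2C read 10.57, 10.56, 10.46 and 10.65 with DHT and 10.85, 11.02, 10.95 and 10.97 with Veh+ (-0.39 ± 0.05 SE, adjusted p = 0.00048 in limma). A second probe set of KMT2C fell by 0.32, and the mean of its 6 did not pass. EHMT2 read 8.02, 8.07, 8.0 and 7.94 against 8.34, 8.41, 8.39 and 8.37 (-0.37 ± 0.04 SE, adjusted p = 0.0001). Its other 2 probe sets were at -0.03 and -0.07 and did not pass. EZH1 read 8.38, 8.40, 8.42 and 8.22 against 8.61, 8.68, 8.68 and 8.69 (-0.31 ± 0.05 SE, adjusted p = 0.0015), opposite to its rise with siLSD1 in LNCaP. In each of these genes the groups stood clear of each other.

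SETD7 rose with DHT too, and so was called higher in all 3 comparisons. It read 12.27, 12.29, 12.30 and 12.28 against 12.02, 12.05, 12.05 and 12.06 (0.24 ± 0.03 SE, adjusted p = 0.0006 in limma). SUV39H1 was the other member called in all 3. It rose with DHT, from 7.85, 7.82, 7.81 and 7.74 to 7.98, 7.96, 8.0 and 7.95 (0.17 ± 0.04 SE, adjusted p = 0.0087), after falling with siLSD1 in both lines. KMT5A read 10.32, 10.38, 10.23 and 10.32 against 10.07, 10.03, 10.00 and 10.15 (0.25 ± 0.05 SE, adjusted p = 0.0031), and all 4 of its probe sets rose, by 0.25 to 0.55. SMYD3 fell by 0.31, SETDB1 by 0.25, SMYD2 by 0.19 and SUZ12 by 0.16. SETD2, which writes the trimethyl mark of H3K36, fell by 0.29 with overlapping groups (adjusted p = 0.026), a call lost in 8 of 16 other settings, as was that of SUZ12. EZH2, EED, NSD2, NSD3 and EHMT1 were not called and lay between -0.04 and 0.02. The cell division list had 3 rises and 5 falls with DHT (12.5% and 20.8%, against 13.4% and 19.4% of all genes). Its median change was -0.02, and RRM2 (0.39), CCNA2 (-0.21) and E2F1 (0.20) changed most among those called.

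**Figure D3:**
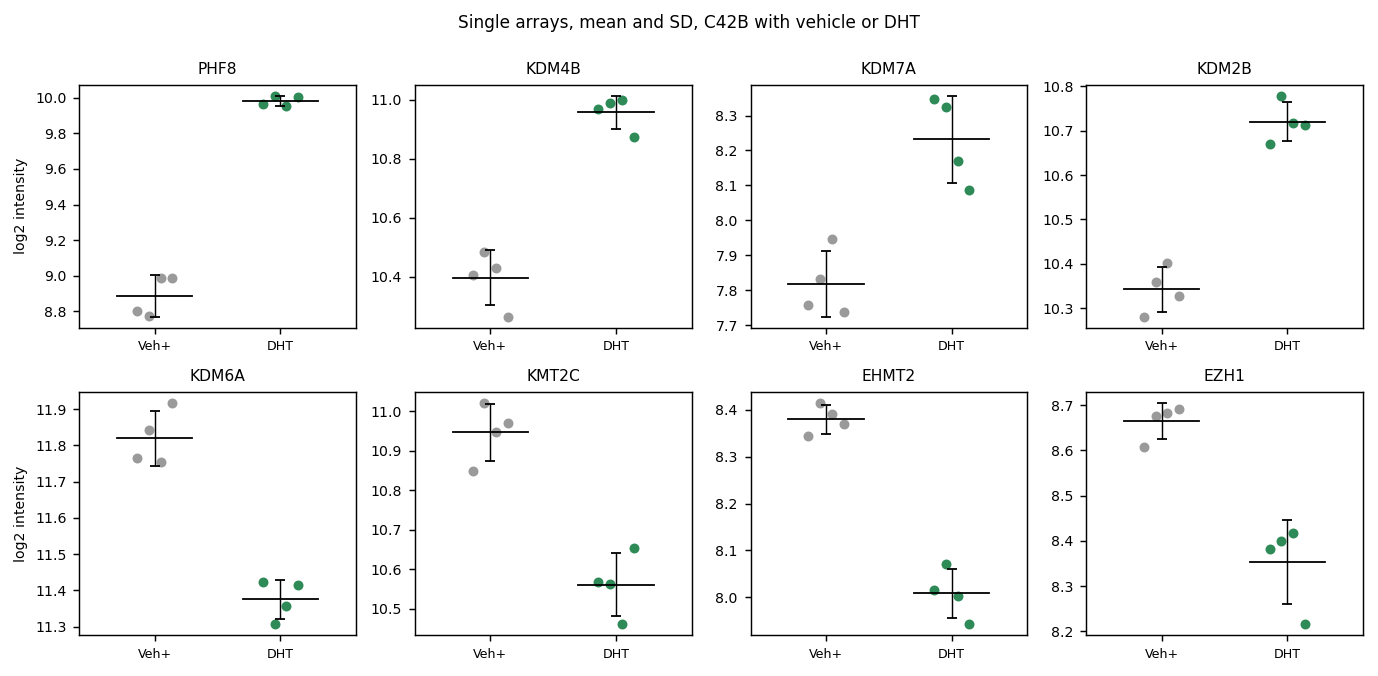
Log2 intensity of single arrays (points) with the group mean and SD (bars) for the 8 bright genes that DHT changed most. PHF8, KDM4B, KDM7A and KDM2B are higher with DHT and KDM6A, KMT2C, EHMT2 and EZH1 lower, with no overlap between the 4 DHT and the 4 Veh+ arrays.

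The probe sets of 1 gene were then set against each other, with every probe set of the array tested on its own. At that level 12.7% of all 41091 were called with siLSD1 in C42B, 21.9% in LNCaP and 27% with DHT. Of the 150 probe sets of the 43 genes, 5 rose and 23 fell in C42B, 16 rose and 30 fell in LNCaP, and 23 rose and 22 fell with DHT. Of the members called by their brightest probe set, 6 of 13 in C42B, 14 of 19 in LNCaP and 15 of 20 with DHT had another that was bright in at least 1 of the 2 groups. At least 1 of these passed in the same direction for 3, 11 and 6 genes, and none passed in the opposite direction. EZH2, SUV39H1, SMYD3, KDM2B, SETD1A and SETD1B had a single probe set each and no such check.

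**Figure D4:**
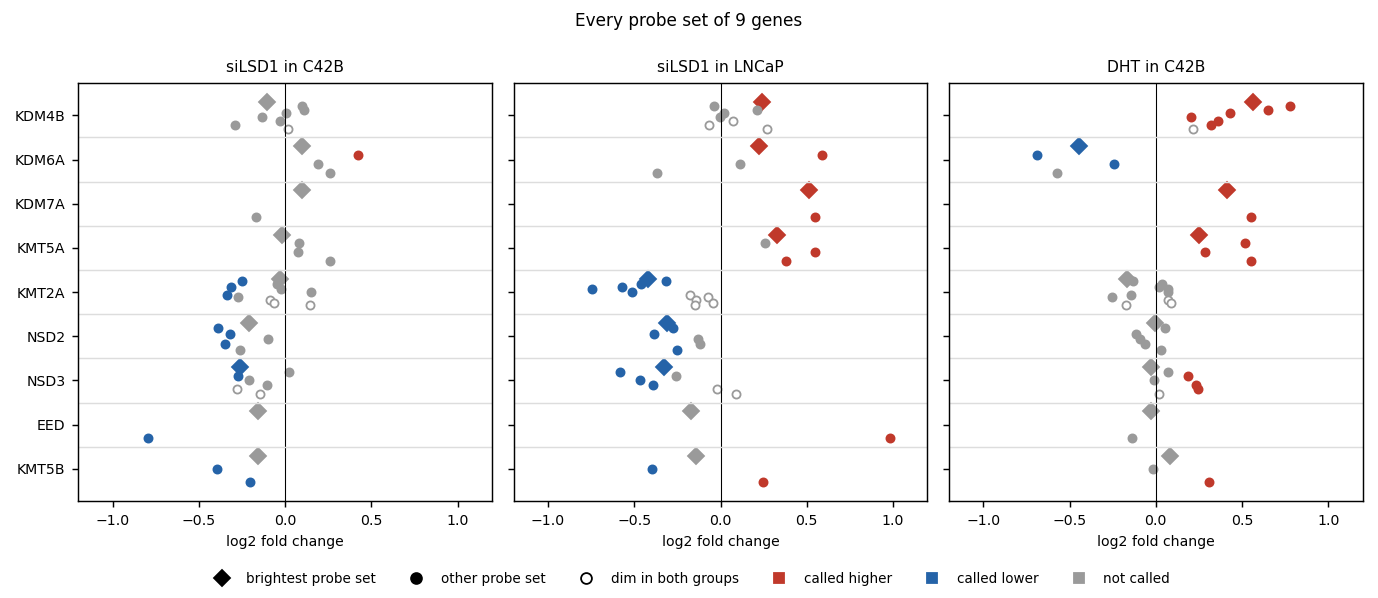
Log2 fold changes of every probe set (diamond, the brightest; circle, another; open, dim in both groups) of 9 genes in the 3 comparisons, coloured where the adjusted p over all probe sets was under 0.05. The bright probe sets of KDM4B all rise with DHT, those of KMT2A fall in LNCaP, and the second one of EED goes opposite ways in the 2 lines (-0.79 and 0.98).

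Other genes of histone lysine methylation were counted on a separate list of 43 measured genes, with ASH1L not analysed here. This partner list held proteins that work with these enzymes and also further enzymes, such as KMT2B, KMT5C, SETD3 and SETMAR. In C42B 11 fell (25.6%, against 9.39% of all genes) and 0 rose (against 8.66%) after siLSD1 in limma. Without adjustment, 24 of the 43 had a p below 0.05 there, as did 6164 of all 19775 genes. PHF19, a PRC2 accessory protein, fell by 0.72, CBX5 (HP1 alpha), which binds methylated H3K9, by 0.47, and WDR5, a core subunit of the KMT2 complexes, by 0.39. PAXIP1, which joins KMT2C and KMT2D, fell by 0.39, and SETD3, an actin histidine methyltransferase, by 0.38. In LNCaP 17 fell (39.5%, against 12.5%) and 2 rose (4.65%, against 13.4%), with CBX5 (-0.77), PAXIP1 (-0.70), WDR5 (-0.60) and RBBP4, a histone-binding PRC2 subunit (-0.55), furthest down and JARID2, a PRC2 cofactor, up by 0.49. With DHT 12 fell (27.9%, against 19.4%) and 5 rose (11.6%, against 13.4%). The list's median change was -0.11, -0.17 and -0.05 in the 3 comparisons. AEBP2, also of PRC2, fell by 0.43, MLLT3, a partner of DOT1L, by 0.39 and JARID2 by 0.37, while PHF1, another PRC2 accessory protein, rose by 0.37 and SETD3 by 0.29. The change differed between the lines for 9 of the 43, 8 of them higher in C42B minus LNCaP (18.6%, against 5.56%), with RBBP4 (0.50), SETMAR, a SET domain joined to a transposase (0.46), PAXIP1 (0.31) and CBX5 (0.30) highest and JARID2 (-0.39) the lowest.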

How the data were processed

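Total RNA of 20 cultures in 6 groups was measured on Affymetrix 3′ arrays of 54675 probe sets. What the authors deposited is a table of linear intensities, 4.34 to 36333. Per the submitters' processing notes, it was made with RMA and affy. Their versions are not stated there. The labels name 2 labelling kits without assigning them to samples, so kit could not be a term. The number of arrays limits the precision.

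Log2 was taken. Of the probe sets, 62 were controls, 41091 named exactly 1 gene, 1801 several and 11721 none in the platform annotation, which can be old. A gene was represented by its probe set with the highest mean over all arrays. No dim gene was removed, and a change into or out of a dim group was counted from 6 or given no size. Sequences came from RefSeq (GRCh38.p14).

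Each comparison was fitted on its own arrays, with no covariates, in limma 3.58.1 (lmFit, eBayes) under R 4.3.3. Tests were two-sided, and p-values were adjusted by Benjamini-Hochberg across 19775 genes. The difference between lines was a contrast over the 12 siRNA arrays. The fit was tested on simulated data. Python 3.11.15 with pandas 2.3.3, numpy 2.4.6 and matplotlib 3.10.9 made the tables and plots. No replicate arrays were identical.

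The 43 genes, the partner and cell division lists, the markers and the motif words were chosen with earlier results of these data known. Some markers are not reported here. Values of every array are given for the 8 largest called changes per comparison among bright genes and for genes called in both siRNA comparisons. Named too are genes called in opposite directions or for the difference between lines. Per comparison, up to 5 genes of the partner list and up to 3 cell division genes were named. Alternatives were other probe set choices, a filter on dim genes, quantile or median scaling, the replicate block, other eBayes settings, 1 fit of all arrays and leaving out each array.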

Additional observations from a re-analysis of the deposited data

Results flagged for a closer look

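In the DHT group 4 genes had 1 array far from the other 3, by Dixon's ratio of the gap to the range. Chance alone gives about 1 in 20 groups, and 86 groups of 4 arrays were examined. KDM2A was lowest on replicate 3 (10.17, others 10.31 to 10.34, ratio 0.850). KDM4A was highest on replicate 3 (9.05, others 8.86 to 8.89, ratio 0.841). KDM5C was lowest on replicate 4 (7.74, others 7.90 to 7.91, ratio 0.971). KDM6B was highest on replicate 2 (8.87, others 8.71 to 8.73, ratio 0.863). Of these genes only KDM6B was called with DHT, and it lost the call without Veh+ replicate 1 and with averaged probe sets.

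The siLSD1 effect differed between the lines for 11 genes by the contrast C42B minus LNCaP in limma (adjusted p under 0.05). The difference was positive for EZH2 (0.59), JMJD1C (0.45), KDM4D (0.42 as fitted, no exact size since its LNCaP siLSD1 group was dim) and EHMT1 (0.38). It was negative for KDM7A (-0.41), SETD7 (-0.40), EZH1 (-0.39), KMT5A (-0.35), KDM4B (-0.34), SMYD3 (-0.33) and KDM4C (-0.28). EZH2 fell and SETD7 rose in both lines, by different amounts. SMYD3 was the only gene of the 11 called in C42B and not in LNCaP.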

How the results depend on the processing

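Under all alternatives run, 2 of 13 calls in C42B (KDM3A and SUV39H1), 8 of 19 in LNCaP, 12 of 20 with DHT and 3 of 11 differences between the lines kept their direction and their side of the threshold. Averaging all probe sets of a gene ended 23 of these 63 calls and reversed 1, DOT1L in LNCaP (0.019, adjusted p = 0.86 in limma). Quantile normalization, robust eBayes and the filter on dim genes ended 0. The filter on dim genes removed KDM4D with DHT, so that call, counted among the 12, was not tested under it.

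In C42B the 2 rises became 1 with median centring, in the fit of all 20 arrays and with every probe set tested, 4 with trend and robust eBayes, and 0 to 3 with 1 array left out, and the 11 falls 4 to 8. With the replicate block they were 1 and 7. In LNCaP the 7 rises became 4 with averaged probe sets, 12 in the fit of all arrays and 3 to 8 with 1 array left out, and the 12 falls 19 in the fit of all arrays and 8 to 12 with 1 left out. With DHT the 8 rises became 13 with median centring and 7 to 9 with 1 array left out, and the 12 falls 6 with averaged probe sets, 7 with median centring and 10 to 13 with 1 array left out. Of the differences between the lines, the 4 higher became 7 with trend and robust eBayes and 2 to 6 with 1 array left out, and the 7 lower 4 with averaged probe sets and 4 to 7 with 1 array left out. The causes were not tested. Where leaving out an array left 2 in a group, limma pooled the spread.

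KDM1A with DHT stayed at 0.16 but missed the threshold in the fit of all arrays (adjusted p = 0.064), and was 0.13 to 0.17 with 1 array left out. Its difference between the lines of 0.37 (adjusted p = 0.063) passed among bright genes only (0.042), with trend and robust eBayes (0.024) and in the fit of all arrays (0.018), and was 0.30 to 0.43 with 1 array left out. Same-numbered arrays mostly did not deviate together (r from -0.10 to 0.20, above 0.1 in 2 of 10 pairs, best with their own number in 4). The main fits therefore used no pairing. With so few arrays per group, the check cannot show that the numbers carry no pairing. The replicate block ended 11 of the calls. Median centring moved the median of all genes by 0.07 with DHT, the largest shift of any scaling.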

Other observations

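Some genes that were not called by their brightest probe set had another that passed when every probe set was tested, and these were picked after their values were seen. NSD3 was at -0.03 with DHT, but 2 others that were bright in both groups rose by 0.19 and 0.23. The third of JMJD1C fell by 0.58 with DHT (adjusted p = 0.042 in limma), and the second of SUV39H2 by 0.21 (adjusted p = 0.028). In C42B with siLSD1 the fourth of KMT2C rose by 0.32 (adjusted p = 0.024) and the second of KDM6A by 0.42 (adjusted p = 0.035).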
